A study of Rattus norvegicus with 20 samples.

Results

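Collagens are the triple-helical proteins that give the lung its scaffold, and the collagen gene family of the rat was followed here through an abdominal infection with or without stimulation of the vagus nerve. Members were all genes whose symbol in the deposited gene table has the form Col, a number, a and a number, which gave 44 of 19060 genes. Of these, 36 passed a filter on low counts and were tested, and the other 8 are described at the end. All 44 identifiers were found in the RefSeq gene table. Members were taken by name, without use of a measured value, but the choice was made with earlier results of these data known.

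RNA-seq had been run on rat lung, with 20 libraries in 4 groups of 5. Sham animals had their abdomen opened and the caecum handled without injury. CLP animals had caecal ligation and puncture, which leaks gut bacteria into the abdomen and serves as a model of acute respiratory distress syndrome. Sham+VNS and CLP+VNS animals had the respective operation together with cervical stimulation of the vagus on the right side. All 4 groups had therefore been through surgery. The labels give neither strain, sex, age and time of collection nor a sequencing batch, and they do not say whether unstimulated animals had the nerve exposed. Nor do they state that each library came from a separate rat, so the p-values measure the spread between these samples, which may in part be technical.

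As background, each collagen is a trimer of alpha chains, and the number after Col names the collagen type while the number after the a names the chain. Types I, III and V form the banded fibrils of the airway and vessel wall, made mainly by fibroblasts and smooth muscle cells. Type IV forms the sheet of the basement membrane under epithelium and endothelium, type VI forms beaded filaments beside it, and the remaining types decorate fibrils, span cell membranes or sit between basement membrane and stroma. Type IV chain genes lie in head-to-head pairs, in which the members of a pair start close together and are read in opposite directions.

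The stretches between the starts of the type IV pairs are shown because the calls below divide this collagen by pair. They come from RefSeq promoter entries on the GRCr8 assembly, which is not the build of the counts (mRatBN7.2), and capitals mark a match to GGGCGG or its reverse complement CCGCCC. Col4a1 and Col4a2 start 76 bases apart, and the whole interval is shown as read towards Col4a1. Col4a3 and Col4a4 start 412 bases apart, and the 88 bases that lie within 250 bases of both starts are shown as read towards Col4a3. Col4a5 and Col4a6 start 1414 bases apart in this table, so the 100 bases before each start are shown, each in its own gene's direction.
Col4a1-Col4a2 interval, chr16:84885521-84885596, plus strand: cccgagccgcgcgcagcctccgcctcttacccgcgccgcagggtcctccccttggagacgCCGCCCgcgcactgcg
Col4a3-Col4a4 shared stretch, chr9:91323740-91323827, plus strand: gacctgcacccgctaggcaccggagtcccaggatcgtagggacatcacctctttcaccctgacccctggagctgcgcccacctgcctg
Col4a5, chrX:109907259-109907358, plus strand: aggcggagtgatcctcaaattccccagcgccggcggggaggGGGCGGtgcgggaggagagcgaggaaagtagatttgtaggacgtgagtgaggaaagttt
Col4a6, chrX:109905945-109906044, minus strand: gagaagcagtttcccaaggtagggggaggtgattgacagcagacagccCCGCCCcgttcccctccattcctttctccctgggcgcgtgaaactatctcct
The match occurs in the Col4a1-Col4a2, Col4a5 and Col4a6 stretches and not in that of Col4a3 and Col4a4. Over the 250 bases before the start, on either strand, GGGCGG was found in 19 of the 35 collagen genes with an entry (54.3%) and in 32.4% of all 27457 genes of the table. CCAAT on either strand was found in 11 of the 35 (31.4%) and in 34.3% of all genes. Among the collagen genes that fell in CLP against Sham, 9 of 16 with an entry held GGGCGG, and among the other tested collagen genes 10 of 15 did. These are matches of letters in a window and no measurement of binding.

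Libraries held 13729654 to 14453188 counts each, with group ranges that overlap. Markers of the labelled tissue were present in every library, the summed level of 8 alveolar type 2 markers, led by the surfactant gene Sftpc, being 20719 to 36900.3 CPM (counts scaled to a common library size with TMM factors) over all 20. Sham replicate 1 stands apart: its 7 adipocyte markers summed to 1612 CPM against at most 65.8 in the other Sham libraries, its heart muscle markers to 182 against at most 60.5, and its Schwann cell markers to 455 against at most 176. Its mesothelium markers summed to 1608 against at most 911 and its fibroblast markers to 4289 against at most 3899.7. It was the highest Sham library for 15 of the 36 tested collagen genes, so the number of calls and the changes of several genes without it are given below. Sham+VNS replicate 2 had the highest adipocyte sum of the remaining libraries, 448 CPM, and CLP+VNS replicate 1 was the lowest library of its group for 20 of the 36 collagen genes.

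Collagen transcripts fell in the lungs of CLP animals, though not across the whole family. Against Sham, 20 of the 36 tested collagen genes were lower, 1 was higher and 15 were not called, in edgeR's quasi-likelihood test with Benjamini-Hochberg adjustment over all 14794 tested genes (adjusted p under 0.05). That is 21 of 36 in either direction, where 40.3% of all tested genes were called, 20.5% lower and 19.8% higher. The median log2 fold change of the tested collagen genes was -0.60, against -0.01 over all tested genes. In the stimulated animals, CLP+VNS against Sham+VNS, 14 of the 36 were lower and 0 were higher, where 27.3% of all tested genes were called, 13.4% lower and 13.9% higher; the medians were -0.41 and -0.01. Of the genes that fell, 13 fell in both comparisons, which is 65% of the 20 and 92.9% of the 14. For all tested genes the shared calls were 54.1% of the 3029 and 82.6% of the 1984. In 14 of the 36 the 5 CLP libraries all lay below the 5 Sham libraries, where 12.7% of all tested genes did so, and in 10 of the 36 the CLP+VNS libraries all lay below Sham+VNS, where 9.23% of all did. In the other direction the groups were separate for 1 collagen and 13.4% of all genes without stimulation, and for 0 collagens and 9.65% of all genes with it. An unadjusted p under 0.05 was found for 22 of the 36 (48.2% of all genes) and for 17 of the 36 (37.5% of all genes).

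By type the counts in CLP against Sham were as follows, with no test between types. Of all tested genes, 20.5% were lower and 19.8% higher. Fibril-forming chains fell in 6 of 10 tested, fibril-associated chains in 4 of 6, type VI chains in 3 of 6, type IV chains in 2 of 6, both multiplexins, 2 of 3 transmembrane chains and 1 of 2 short-chain collagens. The anchoring fibril chain Col7a1 did not pass the test. Without Sham replicate 1, 18 of 36 were lower and 1 higher, beside 19% of all 14846 genes then tested called lower. Since whole lung was sequenced, fewer cells of a type and less RNA per cell cannot be told apart. Markers of collagen-making cells moved as well: 7 of 13 fibroblast markers were lower and 1 higher in CLP against Sham, with summed levels of 2765 to 4289 CPM in Sham and 2332 to 2926 in CLP, and 5 of 11 smooth muscle and pericyte markers were lower, with sums of 673 to 832 and 464 to 726. Markers of neutrophils were higher in 9 of 9, with sums of 345 to 863 CPM in Sham and 2920.4 to 4765 in CLP, and of 309.5 to 672 in Sham+VNS and 1629.6 to 4499 in CLP+VNS. With stimulation the fibroblast sums were 2746 to 3991 in Sham+VNS and 2595 to 3245 in CLP+VNS, with 3 of 13 markers lower and 2 higher. The shares of all tested genes were then 13.4% lower and 13.9% higher. No marker of these 3 lists was without counts, and the part of these cells in the collagen results was not tested.

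**Figure D1:**
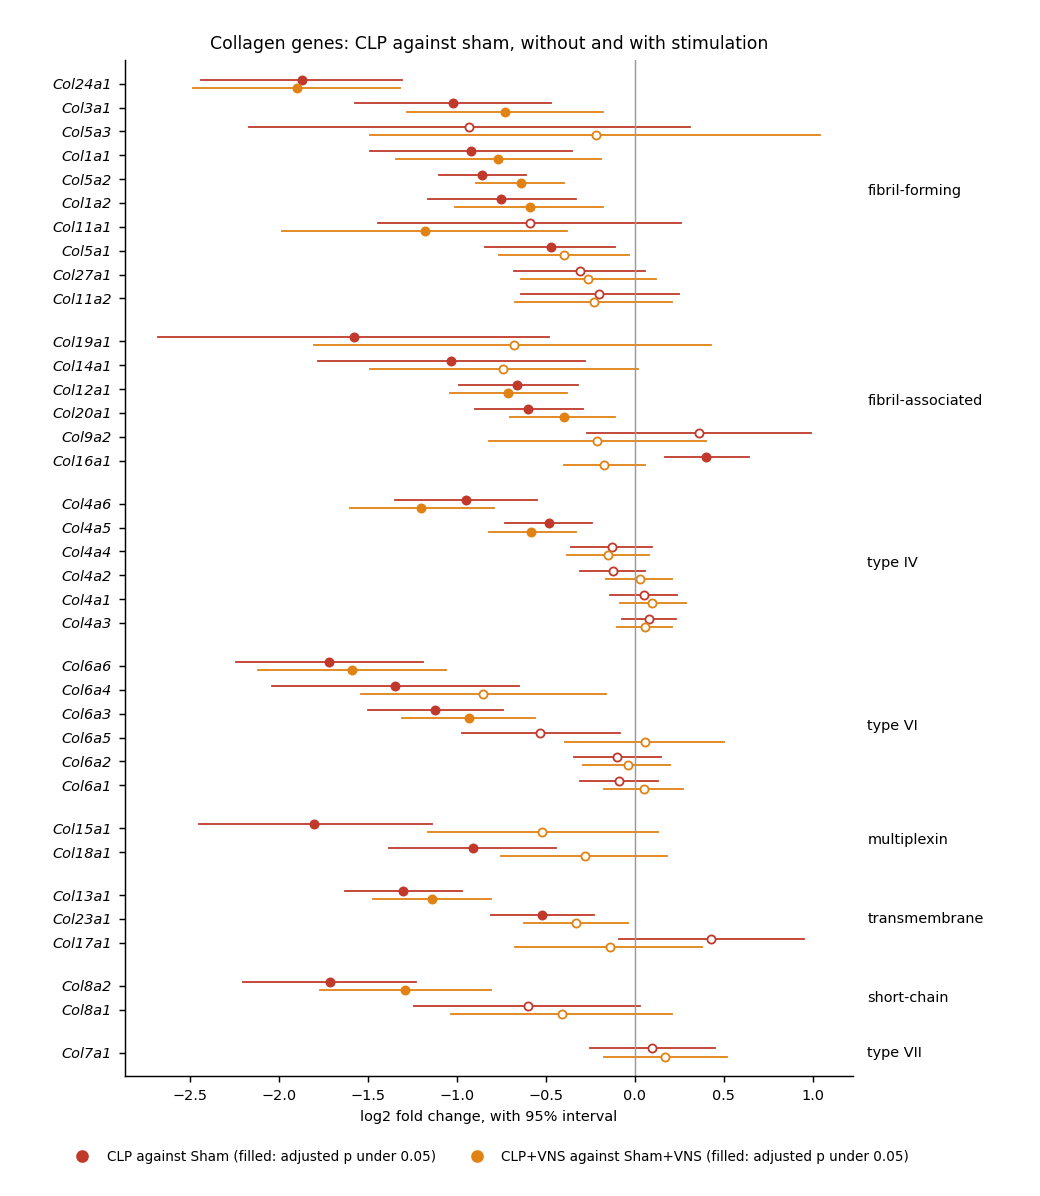
Log2 fold change (horizontal axis) of each of the 36 tested collagen genes (vertical axis, grouped by collagen type) in CLP against Sham (red) and CLP+VNS against Sham+VNS (orange), with 95% intervals as lines and filled points where the adjusted p was under 0.05. Points lie from -1.90 to 0.43, and Col16a1 in CLP against Sham is the 1 filled point right of 0.

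The chains of the interstitial fibrils of types I and III fell with and without stimulation. Col3a1 (gene identifier 84032), the single chain of type III collagen, which makes the fine fibrils of distensible tissue, was at 3506, 2192, 1178, 1555 and 1101 CPM in the 5 Sham libraries and at 866, 760.5, 1013, 1043 and 1007 in the 5 CLP libraries. Every CLP library was below every Sham library, and Sham replicates 1 and 2 were far above the other Sham libraries. The change was -1.02 ± 0.26 (log2 fold change ± SE, adjusted p = 0.00408), a fall of 2.03-fold. With stimulation Col3a1 was at 1047, 1385, 1447, 1748 and 1163 CPM in Sham+VNS and 866, 784, 1004, 929 and 511 in CLP+VNS, again without overlap, and it fell by 1.66-fold (log2 -0.73 ± 0.26, adjusted p = 0.0422).

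Col1a1 and Col1a2 encode the paired chains of type I collagen, the load-bearing fibril protein. Col1a1 (gene 29393) was at 720.1, 361, 216, 344 and 213 CPM in Sham and at 182, 204, 189, 199.9 and 207 in CLP. The lowest Sham libraries, at 213 and 216, lay just above the highest CLP library at 207, and the change was -0.92 ± 0.27 (adjusted p = 0.011). In the stimulated sham group it was at 222, 353, 407, 373 and 271 and in CLP+VNS at 130.4, 246, 219, 201 and 159, with overlap of the groups and a change of -0.77 ± 0.27 (adjusted p = 0.0412). Col1a2 (gene 84352) was at 799.9, 549.6, 379.8, 414 and 334 CPM in Sham and 276, 278, 280.2, 309 and 331 in CLP, where the groups were separate, with 334 as the lowest Sham and 331 as the highest CLP value. Its change was -0.75 ± 0.20 (adjusted p = 0.00511). In the stimulated groups Col1a2 was at 319, 371, 413, 457 and 359.8 and 228, 276, 275, 323 and 173, overlapping only through CLP+VNS replicate 8 at 323, and fell by 1.51-fold (adjusted p = 0.0302).

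Type V collagen nucleates and limits the width of type I fibrils, and its chains moved unequally. Col5a2 (gene 85250) was at 509, 436, 336, 416 and 348 CPM in Sham and at 239.5, 214, 240.4, 210.2 and 226 in CLP. All CLP values were below all Sham values, with a tight CLP group, and the change was -0.86 ± 0.11 (adjusted p = 1.08e-05). With stimulation, 377, 331, 364, 440.3 and 321 CPM in Sham+VNS compared with 189.7, 265, 266, 240.3 and 213 in CLP+VNS, again separate, for a fall of 1.56-fold (adjusted p = 0.000321). Col5a1 (gene 85490) was at 181, 109, 83.8, 116 and 81.2 CPM in Sham and 73.1, 78.8, 92.7, 78.2 and 88.2 in CLP. Its groups overlapped, the high mean of Sham rested on replicate 1 at 181, and the change was -0.47 ± 0.17 (adjusted p = 0.0352). In Sham+VNS and CLP+VNS it was at 89.7, 103, 113, 115 and 84.2 and at 78, 77.3, 81.9, 87.6 and 58.1, a difference of -0.40 ± 0.17 that did not pass (adjusted p = 0.0959).

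Sham replicate 1 bears on the size of these falls. Without it, the log2 fold changes in CLP against Sham were -0.69 for Col3a1 (adjusted p = 0.0135), -0.53 for Col1a1 (0.0429) and -0.51 for Col1a2 (0.0152), all still called. That of Col5a2 was -0.77 (adjusted p = 2.28e-05). Col5a1 was no longer called (-0.25, adjusted p = 0.137), and its call was also lost without Sham replicate 4 or CLP replicate 1, 3 or 5. Col5a3, the remaining chain of type V, was at 40.2 CPM in Sham replicate 1 and at 2.90 to 6.22 in the other Sham libraries, and its difference of -0.93 ± 0.59 (adjusted p = 0.222) turned to 0.40 without that library. In the stimulated comparison the calls of Col1a1, Col3a1 and Col1a2 lay close to the threshold. That of Col1a1 was lost without Sham+VNS replicate 2, 3 or 4 or CLP+VNS replicate 1, 5, 8 or 11. That of Col3a1 was lost without Sham+VNS replicate 2, 3 or 4 or CLP+VNS replicate 1, 3, 8 or 11. Both were also lost with no filter on low counts and with the replicate number as a block. Over the 17 alternatives the log2 fold change stayed from -0.88 to -0.66 for Col1a1 and from -0.81 to -0.54 for Col3a1. Col1a2 was lost without Sham+VNS replicate 3 or 4 or CLP+VNS replicate 1 or 11. Without Sham+VNS replicate 4, and likewise without CLP+VNS replicate 11, 9 of the 14 collagen calls were left, the lost ones being Col1a1, Col1a2, Col3a1, Col11a1 and Col20a1.

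Among the minor fibril-forming chains, Col24a1 (gene 499723), a type linked to type I fibrils of bone and eye, had the lowest log2 fold change of any called collagen and a very low level. It was at 1.62, 1.05, 1.89, 1.97 and 1.8 CPM in Sham and 0.286, 0.636, 0.434, 0.366 and 0.515 in CLP. Sham+VNS stood at 1.55, 1.11, 1.24, 1.86 and 1.62 and CLP+VNS at 0.224, 0.646, 0.36, 0.356 and 0.351. Both comparisons separated fully, with falls of 3.67-fold (adjusted p = 1.98e-05) and 3.73-fold (adjusted p = 4.19e-05), on 3 to 28 counts per library. Col11a1, a chain of the type XI fibrils of cartilage, was called lower with stimulation alone (-1.18 ± 0.38, adjusted p = 0.0253, on 5 to 32 counts), against -0.59 ± 0.40 without stimulation (adjusted p = 0.258). The difference between those changes was -0.59 ± 0.56 (interaction, adjusted p = 0.831). The stimulated call of Col11a1 was lost without Sham+VNS replicate 1 or 4 or CLP+VNS replicate 1, 3 or 11. Col11a2 and Col27a1 did not pass in either comparison, with log2 fold changes from -0.31 to -0.20, though Col27a1 was called lower in CLP against Sham without Sham replicate 3 (adjusted p = 0.0166).

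**Figure D2:**
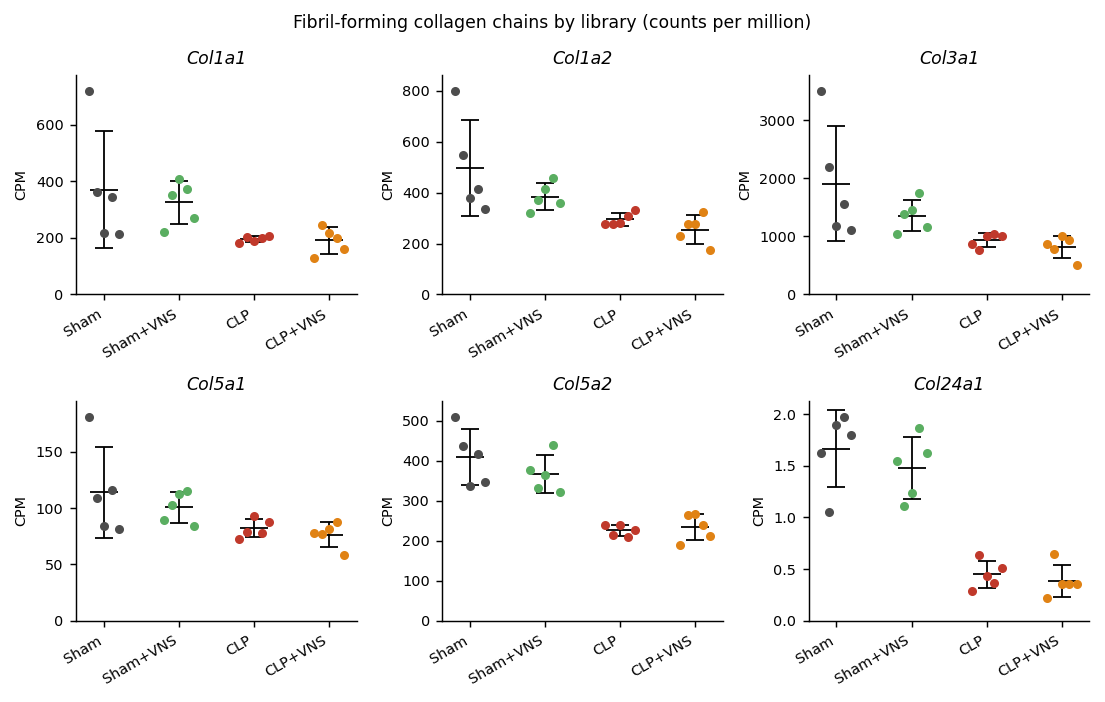
CPM (vertical axes, linear from 0) of 6 fibril-forming chains in each library, by group (horizontal axis); points are libraries in replicate order, and black bars are the group mean with the SD. The CLP points of Col1a1, Col1a2, Col3a1 and Col5a2 lie below all Sham points, and Sham replicate 1 is the highest point for these 4 chains.

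In type IV collagen the calls divided by gene pair, with no test between pairs. The chains Col4a1 and Col4a2, which make the basement membrane found around almost every vessel and epithelium, did not pass the test, nor did Col4a3 and Col4a4, which make the specialised network of alveolus and kidney glomerulus, whereas Col4a5, which joins Col4a3 and Col4a4 in that network, and its X-linked neighbour Col4a6, a chain of smooth muscle and airway basement membranes, fell with and without stimulation. Col4a1 (gene 290905) was at 1186, 1255, 1175, 1152 and 994 CPM in Sham and 1282, 1116, 1297, 1209 and 1074 in CLP, and at 1309, 1375, 1403, 1199 and 1228 in Sham+VNS and 1148, 1301, 1624, 1573 and 1357 in CLP+VNS. Its groups overlapped throughout. The differences were 0.05 ± 0.09 (95% interval -0.14 to 0.24) without and 0.10 ± 0.09 (-0.08 to 0.29) with stimulation.

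Col4a2 (gene 306628) was at 735, 794, 774, 744 and 649 CPM in Sham, 737, 688, 724, 636 and 611 in CLP, 809, 865, 836, 761 and 713 in Sham+VNS and 645, 772, 869.8, 944 and 828 in CLP+VNS. The groups overlapped, with differences of -0.12 ± 0.09 (95% interval -0.31 to 0.06) and 0.03 ± 0.09 (-0.16 to 0.21). Col4a3 (gene 363265) was at 521, 627, 652, 615 and 597 CPM in Sham, 653, 674, 658, 537 and 657 in CLP, 733, 698, 609.7, 621 and 615 in Sham+VNS and 667, 669.9, 685, 652 and 729 in CLP+VNS. The groups overlapped in both comparisons, and the 95% intervals of its differences were -0.07 to 0.23 and -0.10 to 0.21. Col4a4 (gene 301562) was at 12.1, 17.1, 16.8, 14.1 and 16.6 CPM in Sham, 15.2, 15.2, 14.3, 11.1 and 14.1 in CLP, 14.9, 15.6, 13.3, 15.4 and 13.8 in Sham+VNS and 15.1, 11.5, 14.4, 11.6 and 13.2 in CLP+VNS. Its differences were -0.13 ± 0.11 (95% interval -0.36 to 0.10) and -0.15 ± 0.11 (-0.38 to 0.08), neither called. These intervals overlap those of Col4a5, at -0.73 to -0.24 without and -0.82 to -0.33 with stimulation. The deposited FPKM (fragments scaled for length and depth) imply a length of 0.842 kb for Col4a4, where the other type IV chains have 5.98 to 6.68 kb, so its counts and its level per length are not on the footing of the other chains.

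Col4a5 (gene 363457) was at 295, 356, 287, 283 and 289 CPM in Sham and 239.8, 192, 259.7, 183 and 205 in CLP. The 5 CLP libraries were all lower, and the fall was 1.4-fold (log2 -0.48 ± 0.12, adjusted p = 0.00277). In Sham+VNS it was at 311, 277, 307, 321 and 284 and in CLP+VNS at 142, 244, 215, 209 and 197, separate as well, a fall of 1.49-fold (log2 -0.58 ± 0.12, adjusted p = 0.00109). Col4a6 (gene 363458) was at 63.7, 45.4, 50.6, 37.3 and 66.7 CPM in Sham and 37.6, 26.9, 29.4, 20.4 and 22.1 in CLP, which touched only through Sham replicate 4 at 37.3 and CLP replicate 1 at 37.6, and it fell by 1.93-fold (adjusted p = 0.000604). In Sham+VNS it was at 59, 51, 73.5, 50.6 and 43.9 and in CLP+VNS at 16.3, 26.3, 26.9, 25.4 and 26.4, without overlap, a fall of 2.29-fold (adjusted p = 0.000134). The interaction of operation and stimulation was -0.09 ± 0.17 for Col4a5 (95% interval -0.44 to 0.26) and -0.24 ± 0.27 for Col4a6 (-0.81 to 0.32). Alveolar type 1 cells, which with endothelium rest on the alveolar basement membrane, had 8 of 10 markers lower in each comparison. Of all tested genes, 20.5% were lower without stimulation and 13.4% with it. Summed levels of these markers were 9721 to 13176 CPM in Sham and 6699 to 10200.3 in CLP. The part of these cells in the fall of Col4a5 and Col4a6 was not tested.

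**Figure D3:**
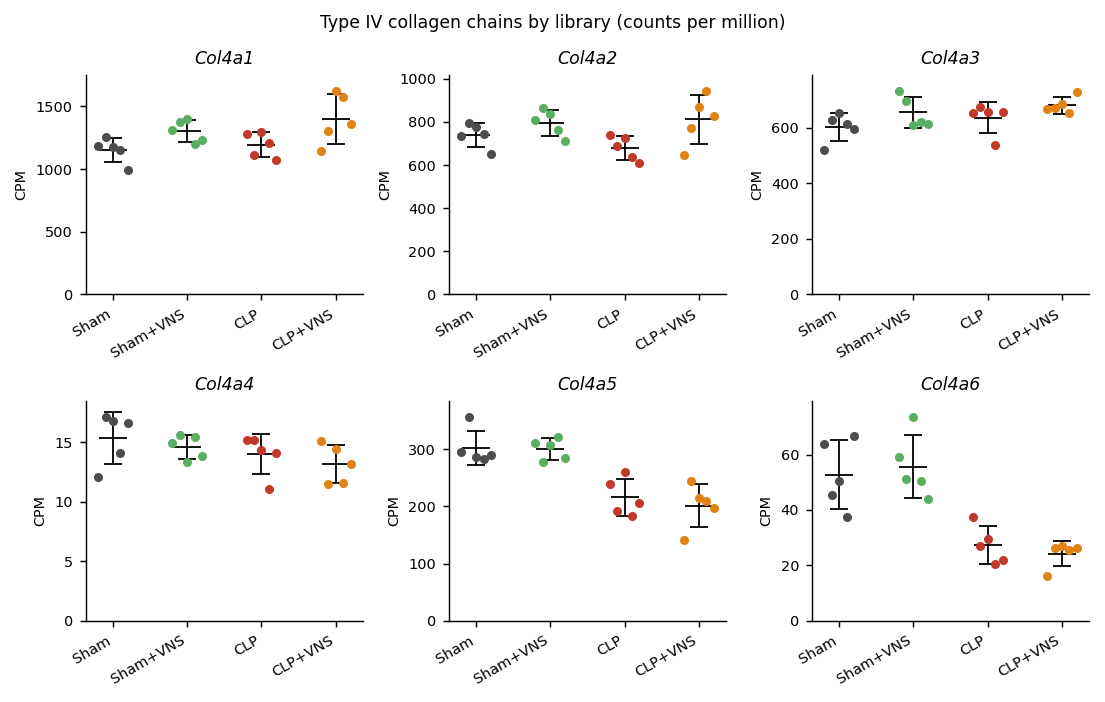
CPM (vertical axes, linear from 0) of the 6 type IV chains in each library, by group (horizontal axis); points are libraries in replicate order, and black bars are the group mean with the SD. The points of Col4a1 to Col4a4 overlap between CLP and sham groups with and without stimulation, while Col4a5 has a mean of 302 CPM in Sham and 216 in CLP, and Col4a6 of 52.7 and 27.3.

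Within type VI, the beaded filament that links basement membrane to stroma, chains that can fill the variable place of the trimer fell while the constant chains Col6a1 and Col6a2 did not pass the test. Col6a1 (gene 294337) was at 552, 411, 382, 368 and 380.3 CPM in Sham, 398, 393, 421, 399 and 353 in CLP, 407, 384, 377, 397 and 366 in Sham+VNS and 327, 383, 449, 470.3 and 365 in CLP+VNS. Col6a2 (gene 361821) was at 452, 276, 271, 287 and 333 CPM in Sham, 292, 279, 335, 320.1 and 288 in CLP, 331, 284, 315, 329 and 301 in Sham+VNS and 269, 329, 321, 338 and 257 in CLP+VNS. In both chains the groups overlapped and Sham replicate 1 was the highest Sham library. The differences in CLP against Sham were -0.09 ± 0.10 (95% interval -0.31 to 0.13) and -0.10 ± 0.12 (-0.34 to 0.15), and without Sham replicate 1 they were 0.02 and 0.05.

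Col6a3 (gene 367313), the long chain that most type VI filaments carry, was at 315, 374, 273, 331 and 297 CPM in Sham and 129, 165, 181, 142 and 115 in CLP. All CLP libraries were below all Sham libraries, and the fall was 2.17-fold (log2 -1.12 ± 0.18, adjusted p = 6.79e-05). Sham+VNS stood at 314, 219.8, 323, 395 and 241 and CLP+VNS at 97.2, 150.1, 178, 197 and 158, also separate, a fall of 1.91-fold (adjusted p = 0.000612). Col6a6 (gene 315979), a chain that can take the place of Col6a3, was at 105, 70.8, 47.9, 64.2 and 74.7 CPM in Sham and 20.3, 24.4, 26.3, 17.9 and 21.4 in CLP. With stimulation it was at 39, 41.1, 72, 86.1 and 35 in Sham+VNS and 12.5, 20.4, 21.1, 20.0 and 16.8 in CLP+VNS. Both pairs of groups were separate, with falls of 3.29-fold (adjusted p = 2.57e-05) and 3.01-fold (adjusted p = 0.000114). Without Sham replicate 1, the log2 fold change of Col6a6 in CLP against Sham was -1.55 in place of -1.72 (adjusted p = 7.18e-05). Col6a4, another such chain, fell in CLP against Sham (-1.35 ± 0.33, adjusted p = 0.00308) and missed the threshold with stimulation (-0.85 ± 0.33, adjusted p = 0.0612). Col6a5 missed it in both (-0.53 ± 0.21, adjusted p = 0.054, and 0.06 ± 0.21, adjusted p = 0.879), although its 5 CLP libraries, at 132 to 205 CPM, all lay below the 5 Sham libraries at 206 to 292. It was called lower in CLP against Sham by DESeq2, on total counts alone, with the compared groups alone, and without CLP replicate 3 or 4, with adjusted p from 0.0115 to 0.18 over the alternatives.

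Ratios between chains are given here as descriptions on the deposited TPM (transcript abundance scaled for length, with the same total in each library). The ratio of Col6a1 to Col6a3 was 3.13 ± 0.629 (SD, n = 5) in Sham and 6.43 ± 0.849 in CLP, 3.17 ± 0.69 in Sham+VNS and 6.18 ± 1 in CLP+VNS. The highest ratio of a sham-operated library was 4.12 and the lowest of a CLP-operated library 5.41. The ratio of Col4a3 to Col4a5 was 1.88 ± 0.22 in Sham and 2.78 ± 0.358 in CLP, and 2.05 ± 0.23 and 3.26 ± 0.709 with stimulation, where one Sham+VNS library at 2.36 exceeded the lowest CLP library at 2.35. Within the pair that fell, Col4a5 over Col4a6 was 6.05 ± 1.65 in Sham and 8.18 ± 1.27 in CLP, with overlap. With stimulation it was 4.2 to 6.53 in Sham+VNS and 7.5 to 9.32 in CLP+VNS, without overlap. Types I, III and V together over type IV gave 1.48 ± 0.697 in Sham (1.19 ± 0.264 without replicate 1) and 0.811 ± 0.106 in CLP, and 1.04 ± 0.199 and 0.646 ± 0.114 with stimulation. The ratio was 0.949 to 2.66 over the Sham libraries and 0.706 to 0.927 in CLP, and it was 0.805 to 1.35 in Sham+VNS and 0.445 to 0.728 in CLP+VNS. CLP and CLP+VNS thus each lay below their own sham group, while the lowest Sham+VNS library lay within the range of CLP. For the neighbours Col4a1 and Col4a2 the ratio was 1.49 ± 0.0365 in Sham (1.45 to 1.54) and 1.68 ± 0.0957 in CLP (1.55 to 1.81). With stimulation it was 1.56 ± 0.0586 (1.5 to 1.64) and 1.65 ± 0.09 (1.56 to 1.78), with overlap. Col1a1 over Col1a2 was 0.541 ± 0.106 in Sham and 0.502 ± 0.0306 in CLP, and 0.632 ± 0.0939 and 0.573 ± 0.119 with stimulation.

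**Figure D4:**
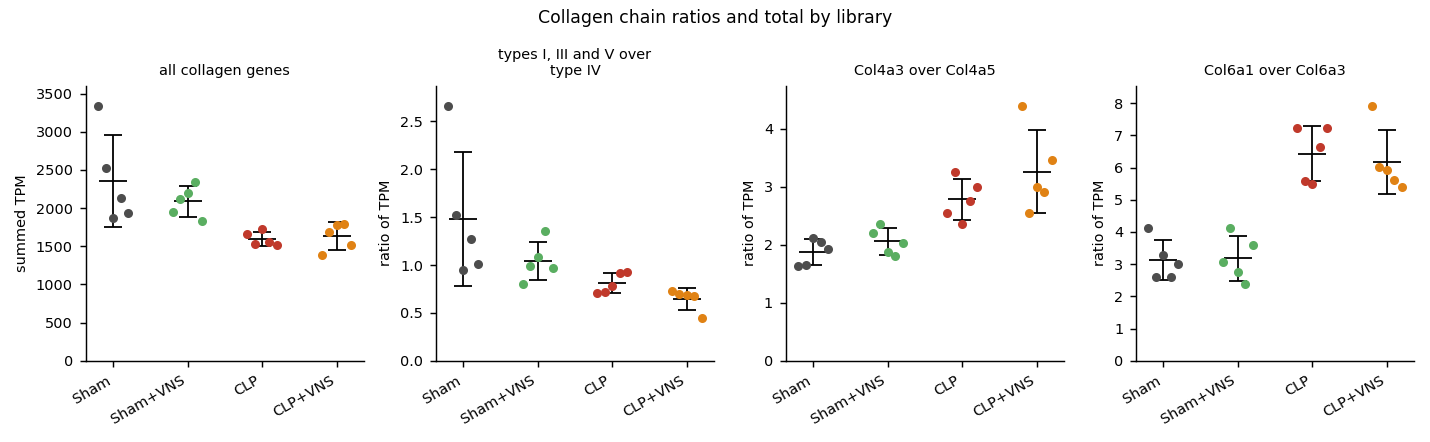
Summed TPM of all collagen genes and 3 ratios of TPM (vertical axes, linear from 0) in each library, by group (horizontal axis); points are libraries in replicate order, and black bars are the group mean with the SD. The ratio of Col6a1 to Col6a3 lies from 2.37 to 4.12 in the sham-operated groups and from 5.41 to 7.91 in the CLP groups.

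On the same TPM scale, per length, Col3a1 was the highest collagen of the Sham lung at 627 ± 338 (SD, n = 5), with a wide spread. It was followed by Col4a1 at 268 ± 21.7 and Col4a2 at 180.1 ± 11.9. Next came Col1a2 at 175 ± 69.5, Col6a1 at 162 ± 32.5, Col6a2 at 143 ± 36.4 and Col4a3 at 131 ± 8.76, each differing from the next by less than the larger SD of the pair. In CLP, Col3a1 at 288 ± 33.9 and Col4a1 at 261 ± 25.4 differed by less than the larger SD. Summed over the 44 genes, collagen TPM were 2359.5 ± 604 in Sham (2115 ± 296 without replicate 1), 2087 ± 205 in Sham+VNS, 1598 ± 88.2 in CLP and 1635 ± 178 in CLP+VNS. All 10 CLP and CLP+VNS libraries, at 1389.6 to 1796, were below the lowest sham-operated library at 1829.7. The nearest libraries were close, and TPM carry no TMM factor. On total counts alone, 61.6% of calls over all genes were lower in CLP against Sham, in place of 50.9% with TMM factors. Whether the summed levels stay separate under TMM scaling was not tested.

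Col15a1 and Col18a1 are multiplexins, collagens bound to basement membrane zones whose ends can be cut free as restin and endostatin. Col15a1 (gene 298069) was at 141, 71.7, 39.3, 90.3 and 88.1 CPM in Sham and 21.2, 23.6, 27.7, 32.4 and 19 in CLP. The groups were separate and the fall was 3.48-fold (log2 -1.80 ± 0.31, adjusted p = 0.000154). Without Sham replicate 1, Col15a1 changed by -1.55 (adjusted p = 0.00046). In Sham+VNS it was at 32.1, 35.3, 64.9, 40.7 and 31.5 and in CLP+VNS at 13.2, 33.4, 39.7, 25.7 and 31, overlapping, with a difference of -0.52 ± 0.30 (adjusted p = 0.232). Sham+VNS differed from Sham by -1.07 ± 0.30 (unadjusted p = 0.00208, adjusted p = 0.485), and the interaction was 1.28 ± 0.43 (unadjusted p = 0.00791, adjusted p = 0.512), so neither passed.

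Col18a1 (gene 85251) was at 49, 41.2, 31, 47.2 and 38.4 CPM in Sham and 21.4, 33.9, 21.4, 19.3 and 13.8 in CLP, overlapping through CLP replicate 3 at 33.9, and fell by 1.88-fold (adjusted p = 0.0029). Its log2 fold change was -0.91, and -0.85 without Sham replicate 1 (adjusted p = 0.00786). With stimulation the sham-operated group was at 30.3, 38.1, 31.9, 42.5 and 30.8 and the CLP group at 18.1, 42, 26.4, 22.5 and 33.5. These groups overlapped widely, with a difference of -0.28 ± 0.22 (adjusted p = 0.372). The interaction was 0.63 ± 0.31 (95% interval -0.03 to 1.29, adjusted p = 0.613). A call without stimulation and none with it is therefore not a shown difference between the comparisons for either multiplexin.

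Fibril-associated collagens sit on the surface of fibrils and do not form fibrils themselves. Col16a1 (gene 366474), which lies near cells in fibrillin and basement membrane zones, was the 1 tested collagen that rose. It was at 150.0, 179.8, 150.3, 151 and 145 CPM in Sham and 218, 193, 209.6, 209 and 198 in CLP. All CLP libraries were above all Sham libraries, and the change was 0.40 ± 0.11 (adjusted p = 0.00655); 13.4% of all tested genes were separate in this direction. In Sham+VNS it was at 164, 154, 203, 178 and 161 and in CLP+VNS at 209, 144, 129.8, 156 and 125, overlapping through CLP+VNS replicate 1 at 209 and replicate 8 at 156, and the difference of -0.17 ± 0.11 did not pass (adjusted p = 0.28). It was called lower there without CLP+VNS replicate 1 (adjusted p = 0.0106). The interaction was -0.57 ± 0.16 (unadjusted p = 0.00156, adjusted p = 0.502). Without the same library the interaction was -0.71 (adjusted p = 0.0291) and was called.

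Col20a1 (gene 311716), another fibril-associated chain, fell in both comparisons at a low level. It was at 8.75, 8.88, 5.3, 7.81 and 6.98 CPM in Sham, 4.86, 6.22, 5.43, 3.66 and 4.78 in CLP, 7.17, 7.03, 8.37, 7.49 and 8.31 in Sham+VNS and 5.22, 6.24, 5.91, 6.2 and 5.41 in CLP+VNS. Without stimulation the groups overlapped and the fall was 1.51-fold (adjusted p = 0.00252), and with stimulation they were separate and it was 1.32-fold (adjusted p = 0.0386). The latter call was lost without Sham+VNS replicate 3, 4 or 5 or CLP+VNS replicate 1, 5 or 11. Col12a1, a long chain of tendon and vessel fibrils, fell by 1.58-fold (adjusted p = 0.00261) and 1.64-fold (adjusted p = 0.00223). Col14a1, which limits fibril fusion, fell in CLP against Sham (-1.03 ± 0.35, adjusted p = 0.026), with Sham replicate 1 at 133 CPM, and the call was lost without that library (-0.66, adjusted p = 0.111), without Sham replicate 2 and without CLP replicate 6. Col19a1, at 0.147 to 4.54 CPM, fell in the same comparison (-1.58 ± 0.52, adjusted p = 0.0203), a call lost without Sham replicate 2 and without CLP replicates 4 or 6. Col9a2 did not pass in either, with log2 fold changes of 0.36 and -0.21.

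Col13a1, a transmembrane collagen of cell adhesion sites, had the smallest adjusted p of the family in both comparisons; it is given by library although it was picked after its values were seen. It was at 111, 94.9, 82.7, 109 and 102 CPM in Sham and 39.7, 49.7, 45.6, 35.2 and 32.9 in CLP, and at 90.4, 68, 97.3, 128 and 83 in Sham+VNS and 31.3, 40.0, 45.3, 48.2 and 46.8 in CLP+VNS. Both pairs were fully separate, with falls of 2.46-fold (adjusted p = 3.5e-06) and 2.21-fold (adjusted p = 2.42e-05). Col23a1 (gene 353303), also transmembrane, was at 38.8, 54.7, 50.1, 53.6 and 54.6 CPM in Sham and 35.5, 42.9, 30.9, 33.3 and 32.4 in CLP, and at 61.7, 41, 42, 57 and 47.3 in Sham+VNS and 49.7, 44.3, 37.2, 33.1 and 34.1 in CLP+VNS. Its groups overlapped in both pairs. It fell in the first (-0.52 ± 0.14, adjusted p = 0.00486) and did not pass in the second (-0.33 ± 0.14, adjusted p = 0.0821). Col17a1, the collagen of epithelial hemidesmosomes, did not pass in either, at 0.43 ± 0.24 and -0.14 ± 0.25.

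Col8a2 (gene 313592), a short chain that forms hexagonal networks in vessel wall and cornea, was at 9.39, 11.5, 14.2, 8.23 and 7.25 CPM in Sham and 2.5, 4.31, 2.61, 2.93 and 3.01 in CLP. Sham+VNS libraries were at 10.9, 6.4, 8.99, 10.7 and 7.74 and CLP+VNS libraries at 2.31, 4.16, 2.67, 4.92 and 4.14. Both pairs of groups were separate, and it fell by 3.28-fold (adjusted p = 1.07e-05) and 2.45-fold (adjusted p = 0.000279). Its partner Col8a1 did not pass, at -0.60 ± 0.30 (adjusted p = 0.116) and -0.41 ± 0.29 (adjusted p = 0.333). Col7a1, which anchors epithelium to the stroma beneath, had differences of 0.10 ± 0.17 (95% interval -0.25 to 0.45) and 0.17 ± 0.16 (-0.17 to 0.52).

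**Figure D5:**
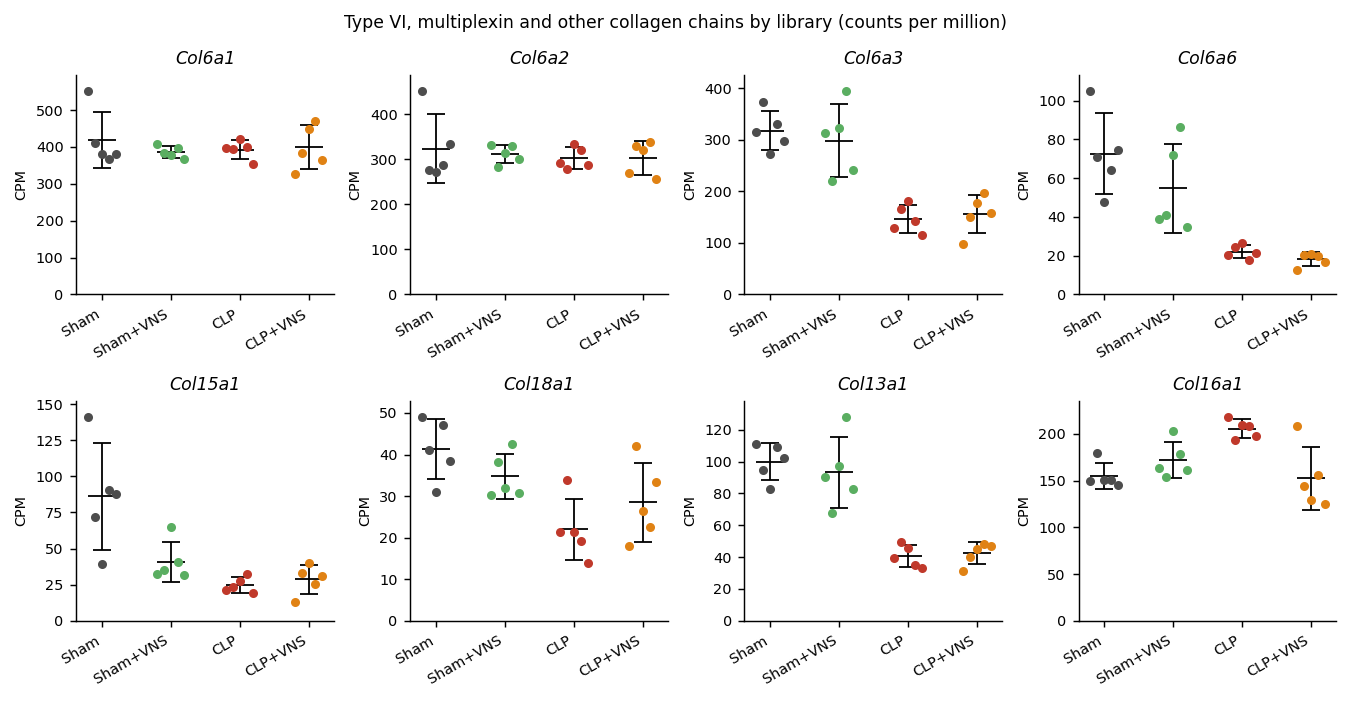
CPM (vertical axes, linear from 0) of 8 further collagen chains in each library, by group (horizontal axis); points are libraries in replicate order, and black bars are the group mean with the SD. Col6a1 and Col6a2 overlap in all 4 groups, Col6a3, Col6a6 and Col13a1 are lower in both CLP groups, and Col16a1 is highest in CLP with CLP+VNS replicate 1 at 209 apart from its group.

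Stimulation itself moved no collagen gene past the threshold in the edgeR test. In CLP+VNS against CLP, 0 of 36 were called in either direction and 4 had an unadjusted p under 0.05 (Col4a1, Col4a2, Col16a1 and Col17a1); over all tested genes 0.027% were called and 13% had such a p. Col4a2 was 679 ± 54.9 CPM (SD, n = 5) in CLP and 812 ± 112 in CLP+VNS, a difference of 0.26 ± 0.09 (adjusted p = 0.225), and Col4a1 differed by 0.23 ± 0.09 (adjusted p = 0.284). Of 11 endothelial markers, cells that rest on type IV collagen, 0 were called in this comparison, but all 11 had positive differences, with a median of 0.36 on the log2 scale and 10 at an unadjusted p under 0.05. Their part in the differences of Col4a1 and Col4a2 was not tested. Col16a1 was 205 ± 9.86 and 153 ± 33.6 CPM, a difference of -0.43 ± 0.11 (adjusted p = 0.173; 0.0318 in DESeq2). Col17a1 differed by -0.72 ± 0.25 (adjusted p = 0.233). No collagen gene had separate groups, where 1.12% of all tested genes were separate upwards and 1.14% downwards. In this comparison 1 library decided the count: without CLP+VNS replicate 1, Col16a1 was lower (-0.57, adjusted p = 0.0051) and Col4a2 higher (0.32, adjusted p = 0.0374), while 128 genes of all tested were higher and 149 lower.

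In Sham+VNS against Sham, 0 of 36 collagen genes and 0% of all tested genes were called; 3 collagens had an unadjusted p under 0.05 (Col15a1, Col9a2 and Col27a1), where 8.01% of all tested genes did. DESeq2 called 0 collagens in this comparison, and 0 had separate groups (0.318% of all genes upwards, 0.48% downwards). The interaction of operation and stimulation called 0 of 36, with 2 at an unadjusted p under 0.05 (Col15a1 and Col16a1) and 8.23% of all tested genes at such a p. For the fibril chains its 95% interval was -0.48 to 1.06 for Col3a1 and -0.65 to 0.95 for Col1a1, and for Col6a3 it was -0.34 to 0.71, so the data leave differences within those bounds possible.

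Genes that act on collagen were taken from lists drawn up with earlier results of these data known. Of 28 tested genes of collagen synthesis and processing, 7 were higher and 9 lower in CLP against Sham, and 4 higher and 7 lower with stimulation. These are 25% and 32.1% of the list, beside 19.8% and 20.5% of all tested genes, and 14.3% and 25% with stimulation, beside 13.9% and 13.4%, so the share of higher genes with stimulation was near that of all genes. P4hb, a subunit of prolyl 4-hydroxylase, the enzyme that hydroxylates proline for helix stability, rose from 502 ± 28.2 to 644 ± 31.4 CPM (log2 0.36 ± 0.07, adjusted p = 0.000226). Other subunits of that enzyme in the list were called in both directions. Adamts14, a procollagen N-proteinase, fell (log2 -1.17 ± 0.19, adjusted p = 5.84e-05), and Colgalt2, which adds galactose to collagen, fell as well (log2 -1.17 ± 0.15, adjusted p = 7.24e-06). The collagen chaperone Serpinh1 was at 539 ± 73.8 CPM in Sham and 441 ± 149 in CLP and did not pass (adjusted p = 0.299).

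Collagen receptors split evenly, with 3 higher and 3 lower of 9 tested in each comparison, 33.3% in either direction. Mrc2, a receptor that takes up collagen for degradation, fell from 116 ± 9.38 to 56.2 ± 7.69 CPM (log2 -1.05 ± 0.10, adjusted p = 2.23e-07), and Gp6, the platelet collagen receptor, rose from 8.93 ± 2 to 24.1 ± 5.1 (log2 1.43 ± 0.19, adjusted p = 8.93e-06). Itga1, an integrin chain that binds type IV collagen, fell (log2 -0.52 ± 0.08, adjusted p = 7.5e-05). Of 10 tested genes of collagen breakdown, 4 were higher (40%) and 2 lower (20%), and 3 higher (30%) and 2 lower (20%) with stimulation. Mrc2 is among the lower genes of both lists, and the higher genes of breakdown include members of the neutrophil list. For both lists the shares of all tested genes are 19.8% higher and 20.5% lower, and 13.9% and 13.4% with stimulation. Timp1, an inhibitor of metalloproteinases, rose from 30.4 ± 5.68 to 501 ± 147 CPM (log2 4.04 ± 0.33, adjusted p = 7.99e-08), and Mmp9, a gelatinase that neutrophils also store and a member of the neutrophil list, rose from 7.59 ± 3.82 to 65.7 ± 20.3 (log2 3.11 ± 0.41, adjusted p = 1.27e-05). Timp2 fell (log2 -0.39 ± 0.08, adjusted p = 0.000877).

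Partners of fibrils were lower in 6 of 11 (54.5%, beside 20.5% of all tested genes) and higher in 1 (9.09%, beside 19.8%) without stimulation. With it they were lower in 3 (27.3%, beside 13.4%) and higher in 1 (9.09%, beside 13.9%). Sparc, a collagen-binding protein of the matrix, fell from 2836 ± 281 to 2126 ± 218 CPM (log2 -0.42 ± 0.13, adjusted p = 0.0129), and Lum, a small proteoglycan of fibrils, from 22.2 ± 22.2 to 6.9 ± 1.57 (log2 -1.68 ± 0.48, adjusted p = 0.00875). Neither passed with stimulation, where Sparc was at -0.34 (adjusted p = 0.0548) and Lum at -0.82 (adjusted p = 0.22). The SD of Lum in Sham was as large as its mean, and Lum is also in the fibroblast list. Aebp1, another fibril partner, was at 911 ± 132 CPM in Sham and 1079 ± 143 in CLP and did not pass (log2 0.24 ± 0.11, adjusted p = 0.0832). Partners in the basement membrane were lower in 10 of 16 (62.5%, beside 20.5%) and higher in 2 (12.5%, beside 19.8%). With stimulation they were lower in 9 (56.2%, beside 13.4%) and higher in 1 (6.25%, beside 13.9%). Agrn, a heparan sulfate proteoglycan, fell (log2 -0.44 ± 0.07, adjusted p = 7.09e-05), and the laminin chain Lamc3 fell as well (log2 -1.02 ± 0.31, adjusted p = 0.0131). Smoc2, a calcium-binding matrix protein, rose from 31.9 ± 9.8 to 68 ± 15.8 CPM (log2 1.09 ± 0.28, adjusted p = 0.00393), while the laminin chain Lamb2, at 563 ± 64.8 and 612 ± 58.9, did not pass (adjusted p = 0.227). Median log2 fold changes in CLP against Sham were -0.06 for synthesis, -0.06 for receptors, 0.27 for breakdown, -0.42 for fibril partners and -0.44 for basement membrane partners, beside -0.01 over all tested genes.

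The 8 collagens that missed the count filter were Col2a1, Col9a1, Col9a3, Col10a1, Col22a1, Col25a1, Col26a1 and Col28a1, with 0 to 33 counts in any library. Sham+VNS replicate 4 held 31 counts, 62% of all counts, of Col2a1, the cartilage fibril chain, and the highest counts of Col10a1 (33) and Col9a1 (6). Elsewhere these chains were near 0, with 12 libraries at 0 for Col2a1 and 10 for Col9a1. Summed over a group, Col22a1 had 24 counts in Sham, 19 in Sham+VNS, 9 in CLP and 11 in CLP+VNS, and Col28a1 had 25, 10, 16 and 19. Groups were not compared on counts this low.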

How the data were processed

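Poly(A) RNA had been sequenced as stranded dUTP libraries, 150 bases from both ends, per the labels' protocols. The authors deposited a gene table with estimated counts (91.5% of values whole), TPM and FPKM, per the file headers, and a transcript table with TPM, used here for the number of models per gene. The build was mRatBN7.2, per the submitters' processing notes. For the aligner, the counter and its strand setting no statement was found (not given in the sources used here), so reads of overlapping genes may be split in unknown ways. The estimated counts that the authors deposited were rounded to whole numbers. Groups came from the treatment labels and replicate numbers from the sample titles, and no per-library column was without a sample.

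Genes were kept with filterByExpr (minimum count 10), which left 14794, scaled with TMM factors (0.977 to 1.04) and fitted over all 20 libraries with edgeR's robust quasi-likelihood test (common biological coefficient of variation 0.161, 16 residual degrees of freedom). The 5 tests were both CLP comparisons, both stimulation comparisons and their interaction, each adjusted by Benjamini-Hochberg over all tested genes at 0.05. On simulated data for CLP against Sham, with 14710 genes, 83.5% of 200 genes changed 2-fold were recovered with 7 false calls. Simulated counts were drawn independently around a common mean per gene, with no library set apart. In the real comparison 40.3% of tested genes were called, so these rates need not hold there. CPM were computed on TMM-scaled library sizes; ratios between chains used the deposited TPM, and implied lengths came from the deposited FPKM. Per-library values were set for the fibril chains of types I, III and V, type IV, Col6a1 to Col6a3, the multiplexins, and any called member among the 4 highest or lowest fold changes, and at most 4 genes per list were named, by level and fold change. Members and lists were chosen with earlier results of these data known. Alternatives were DESeq2's size factors and test, total counts, no count filter, non-robust estimation, the replicate number as a block, the compared groups alone, and each library left out. Sequences came from the RefSeq promoter table (GRCr8), which held 35 of the 44 members. Tools were R 4.3.3, edgeR 4.0.16, limma 3.58.1, DESeq2 1.42.0, Python 3.11.15, pandas 2.3.3, numpy 2.4.6 and matplotlib 3.10.9.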

Additional observations from a re-analysis of the deposited data

Results flagged for a closer look

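In each group of 5, the highest or lowest library was compared with its neighbour, and a gap of over 0.71 of the group's whole range put it apart. Over 30 collagen genes and 4 groups, 120 sets of 5 were examined and 16 stood out, where chance gives about 1 in 20 for values that follow a normal distribution. That rate does not hold near 0 counts, and 8 of the 16 belong to genes that missed the count filter, where a single count can set a library apart.

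CLP replicate 5 was low for the pair Col4a3 (537 CPM against 653 to 674 in the other CLP libraries) and Col4a4 (11.1 CPM against 14.1 to 15.2). CLP+VNS replicate 1 was low for Col4a6 (16.3 CPM against 25.4 to 26.9) and for Col9a3 (0 CPM against 0.43 to 0.577), and high for Col26a1 (0.298 CPM against 0 to 0.0721). Sham replicate 1 was high for Col6a1 (552 CPM against 368 to 411) and Col28a1 (0.988 CPM against 0.145 to 0.211). Sham replicate 2 was high for Col4a5 (356 CPM against 283 to 295) and Col16a1 (180 CPM against 145 to 151).

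Sham+VNS replicate 4 was high for 3 cartilage chains, Col2a1 (2.21 CPM against 0 to 0.209), Col10a1 (2.36 CPM against 0.0703 to 0.493) and Col9a1 (0.428 CPM against 0 to 0.0704). Its summed cartilage markers were not the highest of its group, which ran from 55.8 to 72.4 CPM. Most of that sum was Cytl1, at 55.2 ± 7.03 CPM (SD) in Sham+VNS. The sum therefore cannot show a small rise of other cartilage genes in this library. Single libraries also stood out for Col15a1 in Sham+VNS replicate 3 (64.9 CPM against 31.5 to 40.7), Col8a2 in CLP replicate 3 (4.31 CPM against 2.5 to 3.01), Col22a1 in CLP+VNS replicate 5 (0.36 CPM against 0.0713 to 0.143) and Col2a1 in CLP replicate 4 (0.145 CPM, the other CLP libraries being at 0).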

How the results depend on the processing

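Of the 21 collagen calls in CLP against Sham, 17 held under all 17 alternatives run, and those of Col1a1, Col5a1, Col14a1 and Col19a1 were lost under some. Of the 14 in CLP+VNS against Sham+VNS, 8 held under all 17, and those of Col1a1, Col1a2, Col3a1, Col4a5, Col11a1 and Col20a1 were lost under some, Col4a5 with the replicate block alone (highest adjusted p = 0.0523). Leaving out a library gave 18 to 21 lower collagens in the first comparison and 9 to 14 in the second. The log2 fold change of Col6a1 then ran from -0.13 to 0.02 and of Col6a2 from -0.15 to 0.05 without stimulation. With stimulation Col4a2 ran from -0.03 to 0.10, Col6a1 from -0.02 to 0.11 and Col6a2 from -0.09 to 0.00773.

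The labels do not say whether replicate numbers in the titles pair the libraries. Deviations of same-numbered libraries correlated from -0.198 to 0.181 over 22 pairs. Differently numbered libraries were not compared for reference, so this range cannot decide whether libraries were paired. CLP+VNS replicates 8 and 11 and CLP replicate 6 have numbers found in no other group. As a block, each of these takes its own term and adds nothing to a comparison of groups. Fewer libraries thus bear on the counts that follow. With the replicate number as a block, 8 collagens were lower in CLP+VNS against Sham+VNS, among 1135 genes higher and 974 lower, and 16 collagens were lower in CLP against Sham. Col4a2 was then -0.02 and Col6a1 -0.00628 with stimulation. On total counts alone Col4a2 was -0.00734, and 61.6% of calls over all genes were lower in CLP against Sham (2341 higher, 3763 lower) in place of 50.9%, and 58.6% in the stimulated comparison (1697 higher, 2405 lower) in place of 49.1%; 21 and 14 collagens were lower.

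In CLP+VNS against CLP, DESeq2 called 54 genes higher and 86 lower, 1 of them a collagen (Col16a1), and 0 genes were lower with the block, on total counts or with the compared groups alone. Leaving out a library gave 0 to 128 genes higher and 0 to 149 lower, with 0 to 1 collagen in each direction, the upper values without CLP+VNS replicate 1. In Sham+VNS against Sham, DESeq2 called 1 gene higher and 5 lower, the compared groups alone gave 1 lower, and leaving out a library 0 to 2 higher. The interaction had 4 genes higher and 5 lower in DESeq2, and 0 to 2 higher and 0 to 1 lower, with 0 to 1 collagen lower, on leaving out a library. The cause of these shifts was not tested. Depth limits the statements on Col24a1, Col11a1 and Col19a1, which had few counts per library.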

Other observations

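Collagen transcripts varied more within a group than most genes. The median coefficient of variation of the tested collagens was 22.3% in Sham, 20.4% in Sham+VNS, 15.5% in CLP and 20.3% in CLP+VNS, where all tested genes had medians of 11.1%, 10.5%, 9.8% and 10.5%. Col5a3 had the widest spread of the collagens in Sham (136%) and in Sham+VNS (62.4%), and Col19a1 in CLP (61.2%) and CLP+VNS (55.8%). The tightest were Col4a2 in Sham (7.55%), Col6a1 in Sham+VNS (4.14%), Col16a1 in CLP (4.8%) and Col4a3 in CLP+VNS (4.35%).

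Marker lists of other cell types gave the following calls in CLP against Sham and, after the comma, with stimulation. Of all tested genes, 20.5% were lower and 19.8% higher without stimulation, and 13.4% and 13.9% with it. Lower calls in airway epithelium (14.3% in each) and in cartilage without stimulation (20%) were near or below those shares. So were higher calls in alveolar type 2 cells with stimulation (12.5%). Endothelium had 5 of 11 lower and 1 higher, then 3 lower and 2 higher. Alveolar type 2 cells had 3 of 8 higher, then 1, and macrophages 5 of 8 higher, then 4 higher and 1 lower. Mesothelium had 3 of 7 lower in each, airway epithelium 1 of 7 lower in each, and cartilage 1 of 5 lower, then 0. Smooth muscle and pericytes had 3 of 11 lower with stimulation, and neutrophils 7 of 9 higher. Adipocyte markers were lower in 3 of 4, then 0, heart muscle in 4 of 4, then 0, Schwann cells in 2 of 4, then 1, and skeletal muscle in 0 of 2 in each. Sham replicate 1 was the highest Sham library for the adipocyte, heart muscle, Schwann, mesothelium, fibroblast, cartilage and skeletal muscle sums.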
